A study of Mus musculus with 24 samples.

Results

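Aortas of male mice with healthy kidneys were compared between animals homozygous for a Bmp2 allele named ∆UCS and animals with intact Bmp2. The comparison used 8 of the 24 libraries of the series, chosen by their library names in the deposited table: 4 Bmp2∆UCS/∆UCS and 4 Bmp2+/+ Klotho control males. All mice were on the 129S1/SvlmJ background. The ∆UCS animals were 45 to 48 days old and all carried Klotho+/Kl. The Bmp2+/+ animals were 44 to 48 days old, and replicates 2, 3 and 4 carried Klotho+/Kl while replicate 1 was Klotho+/+. Each library came from polyA RNA of an aorta that was flash frozen. The labels give the allele by name only, so what it alters in Bmp2 is not stated here. The other 16 libraries were Klotho Kl/Kl males of both Bmp2 genotypes, labelled as having renal disease, and Bmp2+/+ females with and without Kl/Kl. The labels do not say that the replicates of a group came from separate litters, and p-values measure the spread between these samples.

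The library names have 2 spellings, each numbered 1 to 12, and were taken here as library sets 1 and 2. The labels do not call them batches. All 4 ∆UCS libraries and Bmp2+/+ replicates 1 and 3 were in set 1, and Bmp2+/+ replicates 2 and 4 were in set 2. Set was therefore a term in each fit, and set 1 was also analysed alone. Depth was estimated at 43022235 to 50879140 reads in genes in the ∆UCS libraries and 32267131 to 40613051 in the Bmp2+/+ libraries. The share of TPM in mitochondrially encoded genes was 53.5% to 61.2% in ∆UCS and 47.3% to 58.6% in Bmp2+/+. All 22 genes of a list that defines contractile smooth muscle, the main cell of the aortic wall, were detected, with a summed 310079 to 459467 scaled reads in ∆UCS and 198024 to 317403 in Bmp2+/+. Scaled reads are the reads of a gene estimated from its TPM, divided by a median-of-ratios factor of the library. Expression differences in bulk tissue cannot be split into fewer cells of a type and less RNA per cell. Libraries that stood apart by the tissue they held are given with the gene lists they touch.

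Bone morphogenetic proteins (BMPs) are secreted ligands that bind paired type I and type II receptors on the cell surface, which phosphorylate Smad1, Smad5 and Smad9. These join Smad4 in the nucleus and turn on genes such as the Id family, while secreted antagonists hold ligands away from their receptors. In arteries BMP2 is best known for its link with mineral deposition in the wall, and the related TGF-β ligands act through Smad2 and Smad3 on collagen, elastin and smooth muscle genes.

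Bmp2 itself (ENSMUSG00000027358, chr2:133394079-133404805 on the plus strand, mm39) had overlapping levels in the genotypes. Its TPM was 0.185, 0.287, 0.312 and 0.484 in ∆UCS replicates 1 to 4 and 0.465, 0.292, 0.391 and 0.240 in Bmp2+/+ replicates 1 to 4. Each group held values above and below the mean of the other. Mean TPM was 0.317 ± 0.124 (SD, n = 4) in ∆UCS and 0.347 ± 0.101 (SD, n = 4) in Bmp2+/+, a log2 ratio of -0.13 (two-sided exact permutation test, p = 0.714). With 4 against 4 samples the smallest p this test can give is 0.0286. The values rest on 111 to 238 estimated reads per library. In scaled reads Bmp2 stood at 103, 144, 122 and 164 against 132, 123, 151 and 138, and the fit on reads put the difference at -0.06 on the log2 scale with a 95% interval from -0.86 to 0.73. A difference within that interval was not detectable here. Kl, the gene mutated in the Kl/Kl animals, had 9 to 26 scaled reads in the 8 libraries, too few to check a Klotho genotype.

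Across all genes, no difference between the genotypes passed the test. Of 9933 genes that reached a TPM of 1 in 4 or more samples, 0 were called (0%) by limma on log2(TPM + 1) at a Benjamini-Hochberg adjusted p under 0.05, and the smallest adjusted p was 0.959. Before adjustment, 38 genes were higher in ∆UCS (0.383%) and 178 lower (1.79%) at a p under 0.05. The TPM of 20 genes (0.201%) was higher in every ∆UCS library than in any Bmp2+/+ library, and that of 89 (0.896%) was lower. The median log2 difference over all genes was -0.17 on the deposited scale and -0.01 after median-of-ratios scaling, so a value on the TPM scale is best read against -0.17. With that other scaling 202 genes were higher and 179 lower at an unadjusted p under 0.05, with 0 called and a smallest adjusted p of 0.442.

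The deposited TPM divides by the genomic span with its introns, so a gene can be compared between libraries but not with other genes, and long genes often miss the TPM filter. The estimated reads were therefore also fitted with limma voom, for 22299 genes that reached 10 reads in 4 or more samples. That fit called 0 genes (0%), with a smallest adjusted p of 0.783 in the main comparison. It put 508 genes higher (2.28%) and 868 lower (3.89%) at an unadjusted p under 0.05. Scaled reads did not overlap between the groups for 588 genes higher (2.64%) and 236 lower (1.06%) in ∆UCS. The median 95% interval of a log2 difference reached 0.61 to either side on the TPM scale and 0.89 on the reads scale, so differences below about that size were not resolved for a typical gene.

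**Figure D1:**
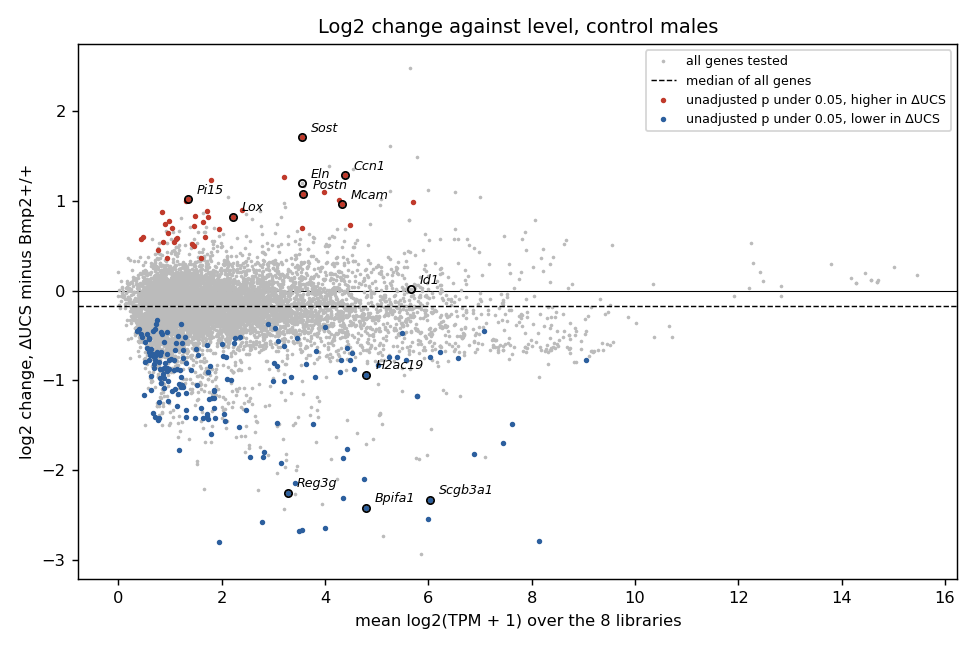
Log2 difference between ∆UCS and Bmp2+/+ control males (vertical axis, log2(TPM + 1) fit) against the mean log2(TPM + 1) of the 8 libraries (horizontal axis) for 9933 genes, with the 38 higher and 178 lower genes at an unadjusted p under 0.05 in colour. The dashed line is the median of all genes at -0.17, and none of the genes passed the adjusted threshold.

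Of the abundant genes that separated the groups on the TPM scale, 5 were higher and 4 lower in ∆UCS, and none was called. Those higher included 2 genes of the elastic fibre. Lox, lysyl oxidase, which crosslinks elastin and collagen, had a TPM of 3.44, 4.08, 7.06 and 5.81 in ∆UCS and 3.41, 2.83, 2.28 and 2.20 in Bmp2+/+. The lowest ∆UCS library and the highest Bmp2+/+ library nearly met, and the log2 difference was 0.82 (95% interval 0.11 to 1.54). Eln, which encodes elastin, stood at a TPM of 14.6, 13.4, 26.3 and 23.5 against 12.2, 5.71, 4.68 and 3.59, with a log2 difference of 1.20 (interval -0.01 to 2.40). Bmp2+/+ replicate 1, the Klotho+/+ animal, was closest to the ∆UCS libraries in both genes.

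Ccn1, a matricellular protein induced by TGF-β and by stretch, had a TPM of 27.6, 32.1, 55.0 and 20.0 in ∆UCS and 17.2, 7.36, 14.0 and 13.2 in Bmp2+/+ (log2 difference 1.28, interval 0.08 to 2.48). Mcam, an adhesion molecule of smooth muscle and endothelium, stood at 22.9, 21.9, 32.9 and 25.4 TPM against 21.5, 20.1, 10.6 and 8.85 (log2 difference 0.96, interval 0.04 to 1.89). Only replicates 3 and 4 of Bmp2+/+ were far below the ∆UCS range for Mcam. The fifth gene, Ahcyl1, which tunes inositol trisphosphate receptors, differed by 0.24 on the log2 scale, with a TPM of 11.7 to 13.6 in ∆UCS and 7.43 to 11.2 in Bmp2+/+.

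The 4 abundant genes that were lower in every ∆UCS library were H2ac19, Mt2, Ndufc1 and Timm10. H2ac19, a replication-dependent histone H2A gene, had a TPM of 20.7, 17.7, 17.7 and 26.3 in ∆UCS and 41.1, 30.1, 44.6 and 27.7 in Bmp2+/+ (log2 difference -0.94, interval -1.65 to -0.22). It has near-identical copies, and how reads shared by copies were counted is not given in the sources used here, so its value is uncertain. Mt2, a metallothionein, stood at 22.0, 28.1, 23.1 and 44.8 TPM against 62.2, 55.0, 56.9 and 113, and with the library-set term its difference was -0.58 (interval -2.07 to 0.92). For Ndufc1, a complex I subunit, and Timm10, a mitochondrial import chaperone, the log2 differences of -0.41 and -0.32 were close to the -0.17 of all genes. Both genes overlapped between the groups in scaled reads.

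**Figure D2:**
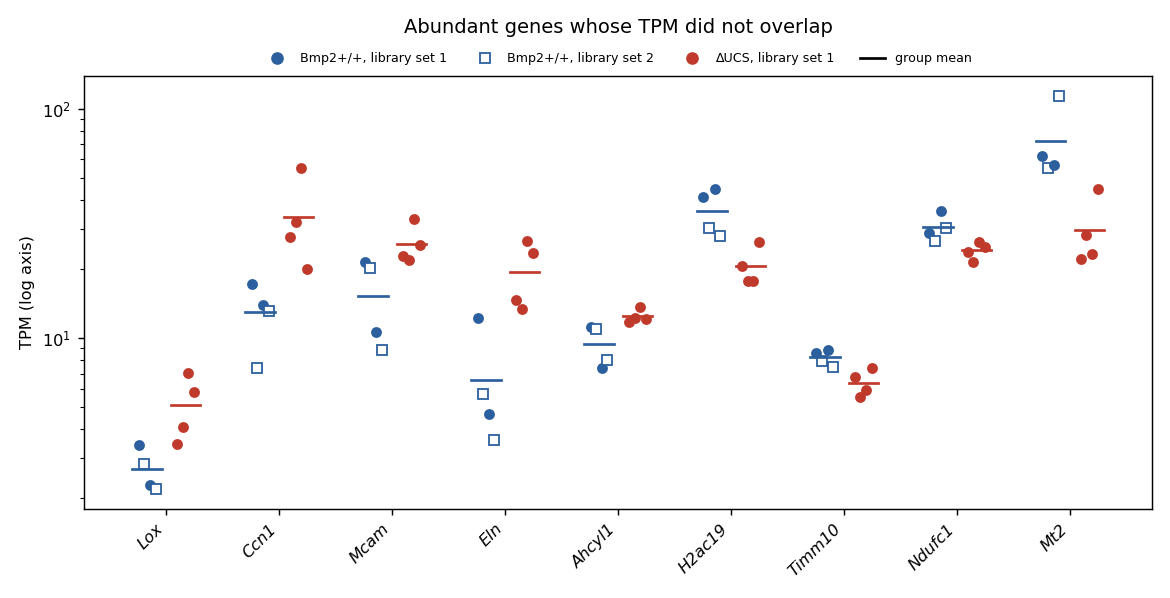
TPM (log axis) of the 9 abundant genes whose TPM did not overlap between the groups, 1 point per library with a line at the group mean; open squares are the 2 Bmp2+/+ libraries of set 2. Lox, Ccn1, Mcam, Eln and Ahcyl1 were higher and H2ac19, Timm10, Ndufc1 and Mt2 lower in every ∆UCS library, and the groups nearly met for all but Ccn1 and Mt2.

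Among the BMP ligands and close relatives, 15 of 17 listed genes could be fitted on reads, 0 were called, and the median log2 difference was 0.01 against -0.01 over all genes. Scaled reads did not overlap for 3 of them, against the 2.64% higher and 1.06% lower over all genes. Bmp7, which acts in kidney and bone, stood at 24, 25, 40 and 52 scaled reads in ∆UCS and 138, 81, 63 and 103 in Bmp2+/+, low in every ∆UCS library. Its log2 difference was -1.47 (interval -2.85 to -0.10). Inhba, the activin A subunit, was higher in every ∆UCS library at 1166, 816, 1243 and 818 against 623, 790, 766 and 406, with a log2 difference of 0.58 (interval -0.17 to 1.32). Gdf10 ranged from 1653 to 2397 in ∆UCS and from 795 to 1452 in Bmp2+/+.

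The remaining ligands overlapped between the groups. Bmp4, made by many mesenchymal cells, stood at 790, 543, 698 and 396 scaled reads against 549, 362, 478 and 335. Bmp6, a ligand of endothelium and iron sensing, stood at 1026, 922, 890 and 738 against 817, 535, 353 and 483, with a log2 difference of 0.54 (interval -0.14 to 1.23). Over the whole list 8 of 15 ligands had a positive log2 difference. The median was below 0 without ∆UCS replicate 2 (-0.10) or replicate 3 (-0.025). Without Bmp2+/+ replicate 1, 2 ligands were lower in every ∆UCS library, against 492 of all 22299 genes. Here and in the lists below, leaving out a library can only keep or raise a count of genes that separated the groups. Bmp8a and Gdf2 were below the filter.

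For the receptors and co-receptors, all 14 listed genes were fitted, none separated the groups, and the median log2 difference was 0.21. Without Bmp2+/+ replicate 3 the median was 0.025, and without ∆UCS replicate 1 it was 0.12. Without Bmp2+/+ replicate 2, 3 of the 14 were higher in every ∆UCS library, against 6.58% of all genes. The type I receptor Bmpr1a stood at 3950, 2853, 3854 and 3028 scaled reads in ∆UCS and 2713, 3088, 1395 and 2467 in Bmp2+/+, where replicate 3 was low (log2 difference 0.74, interval 0.04 to 1.43). Bmpr1b, its close relative, had a log2 difference of 1.00 (interval -0.02 to 2.02) at 270 to 332 reads against 111 to 344. The type II receptor Bmpr2 overlapped, at 3247, 2771, 2957 and 2427 against 2578, 3321, 1906 and 2144. Hjv, the co-receptor hemojuvelin, is a muscle and liver gene and stood at 58, 103, 490 and 618 against 794, 669, 464 and 900 (log2 difference -1.59, interval -3.28 to 0.10). The 2 low ∆UCS libraries, replicates 1 and 2, were also the lowest ∆UCS libraries in the mean of skeletal muscle genes (9.37 and 6.88 against 11.90 and 10.63 on the log2(scaled reads + 1) scale) and of heart muscle genes (9.52 and 10.74 against 13.02 and 12.92), and the part of this in the Hjv difference was not tested.

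Of the secreted antagonists, all 16 were fitted, with a median log2 difference of 0.21 and 0 called. Chrdl1, Fstl1 and Crim1 were higher in every ∆UCS library, against 2.64% of all genes. That count of 3 was 6 without Bmp2+/+ replicate 2 (6.58% of all genes) and 5 without ∆UCS replicate 2 (3.98%). Chrdl1, a chordin-like protein that binds BMPs, stood at 1332, 750, 690 and 693 scaled reads in ∆UCS and 392, 520, 511 and 325 in Bmp2+/+ (log2 difference 0.83, interval 0.12 to 1.55). Fstl1, a secreted follistatin-like glycoprotein of mesenchymal cells, stood at 22399, 14616, 20592 and 15645 against 10811, 10304, 11530 and 10630. Bmp2+/+ libraries differed little from each other for Fstl1, and all ∆UCS libraries were above them (log2 difference 0.76, interval -0.06 to 1.59).

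Crim1, a transmembrane protein that tethers BMPs, stood at 1832, 1585, 1751 and 2039 scaled reads against 1491, 1512, 1212 and 898 (log2 difference 0.45, interval -0.05 to 0.95). Sost, sclerostin, a secreted inhibitor of Wnt signalling related to the BMP antagonists, was at 5495, 2910, 4923 and 2410 in ∆UCS. In Bmp2+/+ it was at 2078 and 2625 in replicates 1 and 2 and only 323 and 280 in replicates 3 and 4. The groups overlapped, and the log2 difference was 2.27 (interval 0.44 to 4.09). Twsg1, which can help or hinder BMPs, differed by 0.59 (interval 0.04 to 1.14), with overlap.

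The Smads and their regulators spanned the narrowest range of the 5 BMP lists, with log2 differences from -0.26 to 0.73 over 15 genes, a median of 0.12 and 0 called. The median was -0.035, with 7 of 15 positive, without Bmp2+/+ replicate 3, and 0.23 without replicate 1. Smad1, Smad4 and Smad5 overlapped between the groups. The corepressor Skil was higher in every ∆UCS library, at 2314, 2643, 2748 and 1971 scaled reads against 1722, 1888, 1820 and 1874 (log2 difference 0.44, interval -0.11 to 1.00). Tab1, which couples receptors to the kinase TAK1, was lower, at 472, 355, 408 and 371 against 505, 490, 477 and 476, with a log2 difference of -0.26 (interval -1.05 to 0.53). That made 1 of 15 genes each way, against 2.64% higher and 1.06% lower of all genes.

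Of 18 listed BMP target genes, 17 were fitted, 0 were called, and the median log2 difference was 0.21. Without Bmp2+/+ replicate 3 the median was 0.0092. Hey2 alone was higher in every ∆UCS library, against 2.64% of all genes. That count was 5 without ∆UCS replicate 4 (5.64% of all genes) and 2 without Bmp2+/+ replicate 1 (4.43%). On the deposited TPM scale the medians of the ligand, receptor, Smad and target lists were below 0 (-0.04, -0.11, -0.12 and -0.05) and above the -0.17 of all genes, so their direction depends on the scaling. The antagonist list was above 0 on both scales. Id1 and Id3, immediate targets of the BMP Smads, overlapped. Id1 stood at 2287, 3723, 2144 and 1621 scaled reads in ∆UCS and 1649, 2053, 2448 and 2794 in Bmp2+/+ (log2 difference 0.28, interval -0.44 to 1.00). Id3 stood at 3255, 4224, 2875 and 2090 against 2303, 2378, 1847 and 2598 (0.52, interval -0.06 to 1.11). ∆UCS replicate 2 was the highest library for both genes.

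Id2 stood at 1555, 1418, 1375 and 1317 scaled reads against 1154, 1092, 1362 and 1767 (log2 difference 0.21, interval -0.49 to 0.91), and Id4 at 427, 405, 466 and 336 against 419, 318, 280 and 511. Hey2, a transcriptional repressor of arterial endothelium and smooth muscle that also answers to Notch, was the target that separated the groups. It stood at 855, 699, 659 and 457 in ∆UCS and 418, 408, 187 and 311 in Bmp2+/+, with a log2 difference of 1.38 (interval 0.58 to 2.19) that did not pass adjustment (limma voom, adjusted p = 0.783). Hamp, hepcidin, a BMP-driven iron hormone that heart muscle also makes, stood at 98, 281, 250 and 429 against 839, 488, 949 and 380, with overlap (log2 difference -1.25, interval -2.70 to 0.21).

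Promoters from RefSeq (GRCm38.p6) were available for 11 of the 18 target genes, in a window from 250 bases before to 50 bases after the start. The Smad-binding letters GGCGCC, which read the same on both strands, were in 6 of these 11 genes (Hamp, Hey2, Id2, Id4, Smad9 and Tbx20) and in 11.9% of all 32851 promoters of that length. A gene counted if any of its promoters held the letters, while the share is over single promoters, so these values are not directly comparable. The 250 bases before the start of Id2 are shown as a promoter of a classical target whose level overlapped between the genotypes, at chr12:25096093-25096342 on the minus strand, with GGCGCC in capitals.
Id2: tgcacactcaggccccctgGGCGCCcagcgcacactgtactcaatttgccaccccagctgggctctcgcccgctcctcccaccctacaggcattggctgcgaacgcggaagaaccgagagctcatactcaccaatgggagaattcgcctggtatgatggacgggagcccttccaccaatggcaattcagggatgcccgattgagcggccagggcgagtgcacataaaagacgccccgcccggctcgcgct
A match of letters is a description of the window, not of binding.

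**Figure D3:**
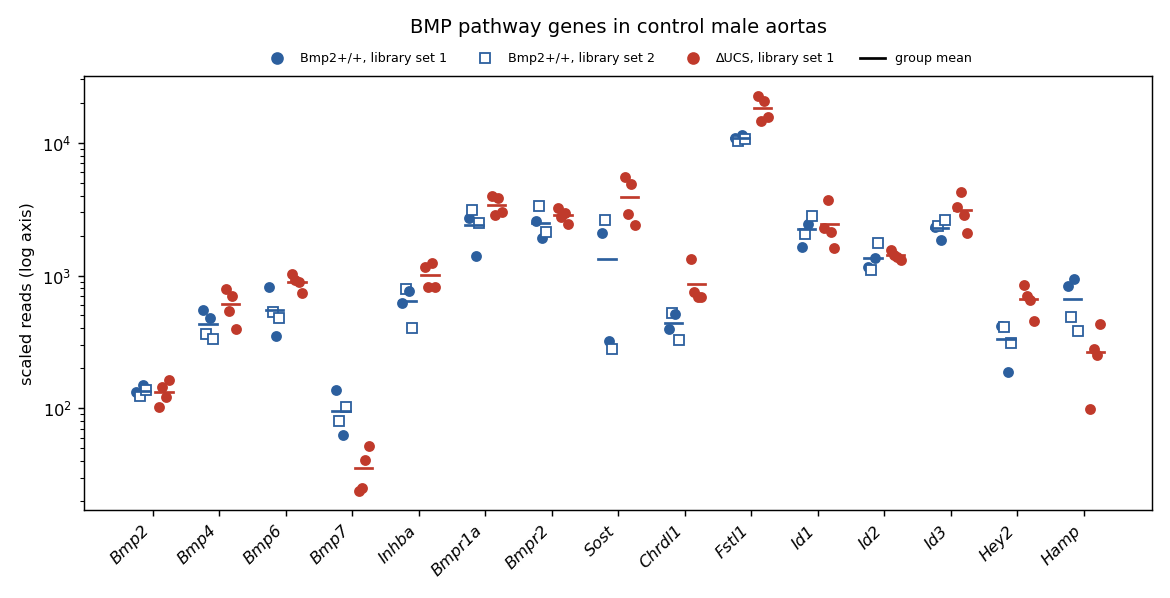
Scaled reads (log axis) of 15 BMP pathway genes in the 8 control male libraries, 1 point per library with a line at the group mean; open squares are Bmp2+/+ libraries of set 2. Bmp2 and Id2 overlapped between the genotypes, Bmp7 was lower in every ∆UCS library, and Inhba, Chrdl1, Fstl1 and Hey2 were higher in every ∆UCS library.

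Within 5 Mb of Bmp2 on chromosome 2 the table holds 142 genes, 101 of which were fitted on reads, with a median log2 difference of 0.09 and 0 called. Of these, 2 were higher and 0 lower in every ∆UCS library, against 2.64% and 1.06% of all genes. Leaving out a library can only keep or raise the count of 2, and the share over all genes rose too. The count was 15, with 4 lower, without Bmp2+/+ replicate 2 (6.58% of all genes higher), and 8 without ∆UCS replicate 4 (5.64%). It was 5 without Bmp2+/+ replicate 1 (4.43%) or 4 (3.79%), and 3 without replicate 3 (3.77%), where the median was 0.034.

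Among all lists examined, that of TGF-β genes had the largest share of members that separated the groups. Of 18 ligands, receptors and targets, 16 had a positive log2 difference, with a median of 0.55, and 10 were higher in every ∆UCS library, against 2.64% of all genes; 0 were called. On the TPM scale, where 14 of them were tested, the median was 0.16, against -0.17 over all genes. Leaving out a library can only keep or raise that count of 10, so its staying high is no sign of stability. Without any single library it was 10 or 11 of the 18, against 3.30% to 6.58% of all genes. The median, which can move either way, was then between 0.46 and 0.59. Without Bmp2+/+ replicates 3 and 4 together the count was 11, against 6.93% of all genes, and 14 of 18 were positive. The mean log2(scaled reads + 1) of the list was 11.44, 11.34, 11.56 and 11.34 in ∆UCS and 11.03, 10.86, 10.77 and 10.56 in Bmp2+/+, so the groups did not overlap. The ∆UCS mean was higher by 0.52 than Bmp2+/+ libraries of set 1 and by 0.71 than those of set 2.

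Postn, periostin, a matrix protein of activated mesenchyme, stood at 21403, 15315, 22691 and 16717 scaled reads in ∆UCS and 10531, 10447, 6031 and 8470 in Bmp2+/+ (log2 difference 1.43, interval 0.38 to 2.48). Ccn2, connective tissue growth factor, stood at 7975, 12980, 14333 and 11340 against 5861, 6387, 7247 and 3452 (1.31, interval 0.15 to 2.46). In both genes each ∆UCS library was above each Bmp2+/+ library, and neither passed adjustment (limma voom, adjusted p = 0.783 for each).

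The elastic fibre and collagen lists leaned the same way. Of 15 elastic fibre genes, 11 had a positive log2 difference with a median of 0.38, and 7 were higher in every ∆UCS library, against 2.64% of all genes. On the TPM scale the median was 0.23. Mfap4, a microfibril-associated glycoprotein, stood at 13793, 7634, 10722 and 9063 scaled reads against 5544, 5845, 3954 and 3917 (1.26, interval 0.17 to 2.36). Fbln5, fibulin-5, which guides elastin assembly, stood at 5278, 4121, 4627 and 3555 against 2405, 2728, 1880 and 1848 (1.06, interval 0.24 to 1.89). ∆UCS replicate 2 had the lowest list mean of its group, and without it 11 of the 15 were higher in every remaining ∆UCS library, against 3.98% of all genes. Without Bmp2+/+ replicate 3 the median was 0.19.

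All 16 collagen chains had a positive log2 difference, with a median of 0.46, and 2 were higher in every ∆UCS library, against 2.64% of all genes. Without ∆UCS replicate 2 that count was 15, against 3.98% of all genes. It was 4 without Bmp2+/+ replicate 1 (4.43% of all genes) and 3 without Bmp2+/+ replicate 2 (6.58%). Without Bmp2+/+ replicate 3 the median was 0.27 and 13 of 16 were positive. On the TPM scale the median of the main fit was 0.17. Col18a1, a basement membrane collagen, stood at 5888, 4061, 6089 and 4693 scaled reads against 3147, 3242, 1232 and 1246 (1.39, interval 0.21 to 2.56).

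Contractile smooth muscle genes had a median log2 difference of 0.86, with 18 of 22 positive, 8 higher and 1 lower in every ∆UCS library, against 2.64% and 1.06% of all genes, and 0 called. On the TPM scale the median was 0.42. Itga8, an integrin chain of smooth muscle, stood at 25779, 13930, 21599 and 15290 scaled reads against 9703, 10984, 2265 and 2580 (2.22, interval 0.93 to 3.51). Kcnmb1, a subunit of the calcium-activated potassium channel, stood at 2024, 1168, 1688 and 1131 against 763, 896, 416 and 321 (1.63, interval 0.34 to 2.91). Cald1, caldesmon, which binds actin, stood at 22020, 13982, 17781 and 12006 against 7557, 11483, 7223 and 6394 (1.11, interval 0.34 to 1.88). For Itga8 and Kcnmb1 the gap was widest to Bmp2+/+ replicates 3 and 4.

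Those 2 libraries had the lowest list means, 12.27 and 11.91, while replicates 1 and 2 of Bmp2+/+ (12.75 and 12.93) overlapped with the ∆UCS libraries (12.72 to 13.23). Without both, the median was 0.65, with 9 higher and 4 lower of 22 in every ∆UCS library, against 6.93% of all genes higher and 1392 of 22299 lower. Without replicate 2 of Bmp2+/+, 13 genes were higher, against 6.58% of all genes, and without replicate 3 alone 3 were lower, against 709 of 22299. Des, desmin, was the gene that was lower, at 2624, 2849, 5455 and 10312 against 14654, 11283, 11905 and 12563 (-1.37, interval -2.74 to 0.00). Desmin is also made by heart and skeletal muscle.

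Of the 22 contractile genes, 17 had a RefSeq promoter (GRCm38.p6) in the window used for the BMP targets. It was searched for the strict CArG box, the serum response factor element with only A or T between CC and GG. Looser forms and sites outside the window were not searched. Myl9, the regulatory myosin light chain, was the only gene with the strict box on either strand, against 1.63% of all 32851 promoters. Again a gene counted if any of its promoters matched, while the share is over single promoters. The 250 bases before its start are shown at chr2:156775214-156775463 on the plus strand, with the CArG box in capitals.
Myl9: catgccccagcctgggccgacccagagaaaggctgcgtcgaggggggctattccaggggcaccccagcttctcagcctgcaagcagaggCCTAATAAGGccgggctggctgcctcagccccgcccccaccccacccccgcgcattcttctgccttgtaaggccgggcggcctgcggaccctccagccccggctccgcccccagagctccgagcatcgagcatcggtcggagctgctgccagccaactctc

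Endothelial genes were positive in 14 of 15 with a median log2 difference of 0.37, and 4 were higher in every ∆UCS library, against 2.64% of all genes. That count was 7 without Bmp2+/+ replicate 2, against 6.58% of all genes. On the TPM scale the median was 0.017, and after median-of-ratios scaling 0.21. Without ∆UCS replicate 2 the median was 0.22. Pecam1, an endothelial junction protein, stood at 9233, 8981, 7269 and 6543 scaled reads against 4913, 4980, 5471 and 4427 (0.65, interval 0.02 to 1.28). The list mean was 10.74 to 11.05 in ∆UCS and 10.38 to 10.65 in Bmp2+/+. Fibroblast markers had a median of -0.05, with 4 of 11 positive, and the median was above 0 without ∆UCS replicate 2 (0.0093) or Bmp2+/+ replicate 1 (0.057) or 4 (0.011).

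Markers of tissue other than the vessel wall varied strongly between the libraries, and the list medians farthest from 0 were those of thymocytes, airway epithelium and T cells. Airway epithelium genes had a median log2 difference of -2.65, 0 of 13 were positive and 0 separated the groups. Bpifa1, a secreted airway protein, stood at 150, 6891, 6838 and 11437 scaled reads in ∆UCS and 11914, 7011, 25364 and 7594 in Bmp2+/+. Reg3g, an antimicrobial lectin, stood at 36, 680, 951 and 876 against 1100, 878, 3182 and 1715. ∆UCS replicate 1 nearly lacked airway genes, with 1843 scaled reads summed over the list against at least 97490 in each Bmp2+/+ library, and without it the median was -1.14.

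Markers of mesothelium, heart muscle, T cells and dividing cells leaned lower too, with medians of -1.28, -1.52, -2.53 and -1.58 and 0 positive members of 9, 13, 16 and 20. The direction for T cells depended on library set: the ∆UCS mean log2(scaled reads + 1) differed by -3.03 from Bmp2+/+ set 1 and by 0.64 from set 2. In the same order it differed by -3.53 and 1.31 for thymocytes and by -1.19 and -0.28 for mesothelium. For heart muscle it was -1.79 and -1.18, and for dividing cells -1.75 and -1.05. The thymocyte median was -3.46 over 5 genes, -0.38 without Bmp2+/+ replicate 1, -6.00 without Bmp2+/+ replicate 3 and -2.25 without ∆UCS replicate 2. Bmp2+/+ replicate 1 stood highest for these, with 8088 scaled reads of the recombinase gene Rag1 against 436 or fewer in the other 7 libraries. Without it the median was -1.56 for T cell genes and -0.68 for cell cycle genes, and without Bmp2+/+ replicate 3 the latter was -2.48. Without ∆UCS replicate 1 the heart muscle median was -0.73. Without ∆UCS replicate 1 the medians were 0.81 for smooth muscle, 0.57 for TGF-β and 0.31 for elastic fibre genes, and without Bmp2+/+ replicate 1 they were 1.06, 0.59 and 0.43. The part of the other tissue in these differences was not otherwise tested.

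**Figure D4:**
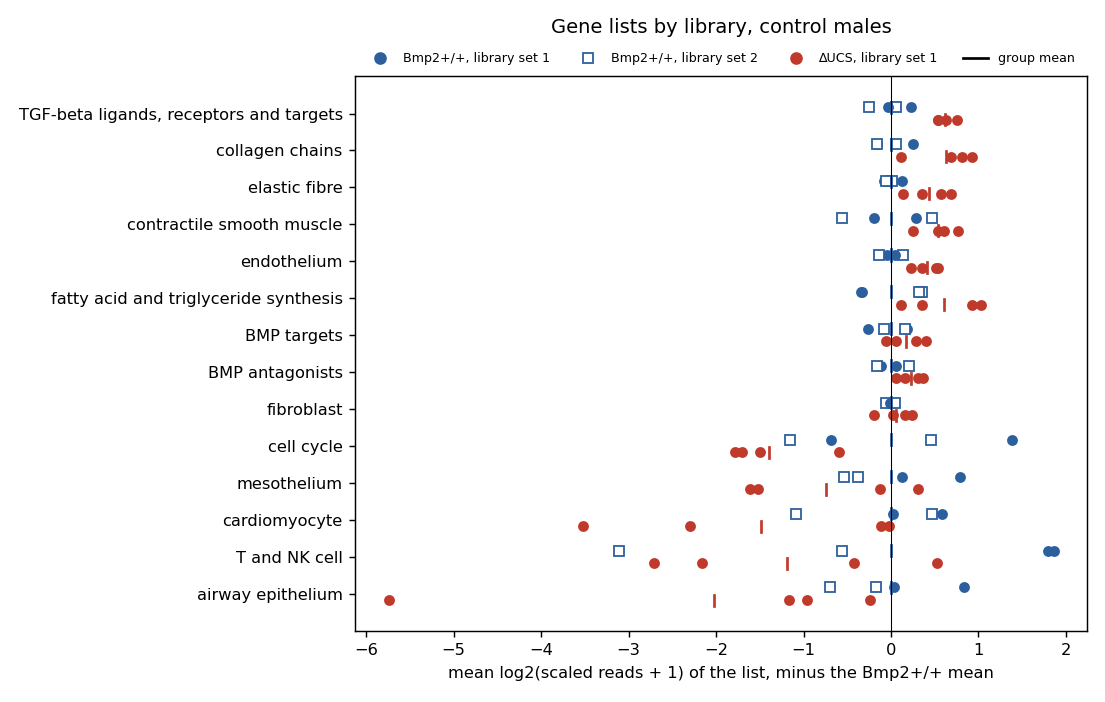
Mean log2(scaled reads + 1) of 14 gene lists in each control male library, minus the mean of the 4 Bmp2+/+ libraries, 1 point per library with a bar at the group mean. The 4 ∆UCS libraries lay above all Bmp2+/+ libraries for the TGF-β, elastic fibre and endothelium lists, and ∆UCS replicate 1 lay far to the left for airway epithelium.

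Lipid synthesis genes were positive in 22 of 22, with a median log2 difference of 0.57, and 1 was higher in every ∆UCS library, against 2.64% of all genes. Acly, which makes cytosolic acetyl-CoA, stood at 47351, 49961, 139434 and 21218 scaled reads against 13075, 27707, 6961 and 53154 (1.78, interval -0.08 to 3.64). ∆UCS replicate 3 was far above the other libraries, and Bmp2+/+ replicate 4 was above 3 of the 4 ∆UCS libraries. Without Bmp2+/+ replicate 1 the median was 0.29 and 17 of 22 were positive, and without ∆UCS replicate 1 it was 0.38. On the TPM scale the median of the main fit was 0.30. The count that separated was 5 without ∆UCS replicate 4 (5.64% of all genes) and 3 without ∆UCS replicate 2 (3.98%) or Bmp2+/+ replicate 2 (6.58%). It was 2 without ∆UCS replicate 1 (3.30%).

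For mineralisation, 12 osteogenic genes had a median log2 difference of 0.46, with 2 higher in every ∆UCS library, against 2.64% of all genes, and 0 called. The median was 0.30 without Bmp2+/+ replicate 1, and 0.00 on the TPM scale, where 3 of the genes were tested. The count was 4 without ∆UCS replicate 2 (3.98% of all genes) or Bmp2+/+ replicate 3 (3.77%). It was 3 without ∆UCS replicate 1 (3.30%) or Bmp2+/+ replicate 1 (4.43%) or 2 (6.58%). Spp1, osteopontin, stood at 143, 111, 97 and 117 scaled reads against 46, 93, 154 and 63. The calcification inhibitor Mgp, matrix Gla protein, stood at 14863, 10193, 10223 and 10270 against 7791, 8610, 12706 and 6415. Both overlapped. Cartilage genes had a median of 0.84, with 2 of 16 higher in every ∆UCS library and 13 of 16 without ∆UCS replicate 1, against 3.30% of all genes. The cartilage median ran from 0.24 without ∆UCS replicate 4 and 0.47 without replicate 3 to 1.56 without Bmp2+/+ replicate 1 and 1.81 without ∆UCS replicate 1. Cytl1, a secreted cytokine-like protein of cartilage, stood at 1709, 3813, 3327 and 3314 against 1696, 883, 1375 and 817 (1.51, interval 0.27 to 2.76), and Comp, a cartilage matrix protein, at 226, 305, 349 and 416 against 192, 121, 127 and 83.

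The same genotype difference was fitted in Klotho Kl/Kl males, with 4 ∆UCS and 3 Bmp2+/+ libraries, because 1 Bmp2+/+ library there went against its labelled sex by Xist and Ddx3y and was left out. There 0 genes were called, and 180 (1.81%) had an unadjusted p under 0.05. The test of the difference between the 2 kidney states called 0 genes, with 205 (2.06%) at an unadjusted p under 0.05 and a smallest adjusted p of 0.956 by limma on log2(TPM + 1). By limma voom on reads it called 0, with 1932 (8.66%) at an unadjusted p under 0.05 and a smallest adjusted p of 0.574.

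In Kl/Kl males the median log2 difference was -0.18 for TGF-β genes, -0.07 for elastic fibre, -0.09 for contractile smooth muscle, 0.02 for lipid synthesis and -0.24 for endothelium. For collagens it was 0.15 with 15 of 16 positive, and for cartilage 0.90 with 15 of 16 positive, beside 0.84 in controls. Postn differed by 1.43 in controls and by -0.25 (interval -1.30 to 0.81) in Kl/Kl males. Chrdl1 differed by 0.83 in controls and by -0.96 (interval -1.65 to -0.26) in Kl/Kl males, a difference between the states of 1.79 (limma voom, adjusted p = 0.574). Itga8 differed by 2.22 and by -0.00 (interval -1.29 to 1.29). None of these differences between the states passed the test. Postn and Itga8 were named for a small p in controls. The part of that choice in their smaller Kl/Kl difference was not tested. Bmp2 differed by -0.06 in controls and by 0.37 (interval -0.42 to 1.17) in Kl/Kl males.

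**Figure D5:**
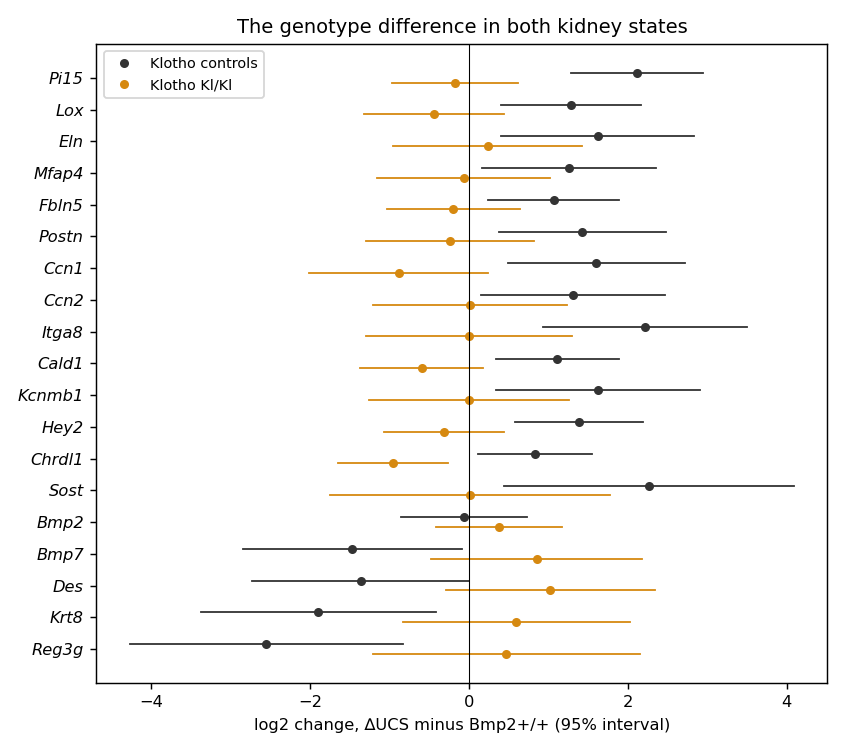
Log2 difference between ∆UCS and Bmp2+/+ males with its 95% interval from the fit on reads (horizontal axis) for 19 named genes, in Klotho controls (dark) and in Kl/Kl males (orange). Most matrix and smooth muscle genes shown lie above 0 in controls and around 0 in Kl/Kl males. Most of these were named for a small p or for their values in controls, so a place above 0 there follows from the choice. The intervals overlap for many genes, and no difference between the states passed adjustment.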

How the data were processed

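TPM values were used as the authors deposited them. Per the submitters' processing notes they used Partek and mm39; the sources used here do not name an aligner or annotation, or say whether strand was used, so antisense, overlapping and near-identical genes are uncertain. Each TPM column of the table used here sums to 482073. Reads were estimated from the deposited TPM by taking its lowest values as 1e-04 reads over the genomic span. Of estimates between 0.5 and 20 reads, 70.9% to 74.9% per library were within 0.05 of a whole number.

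Genes that reached a TPM of 1 in 4 or more samples entered limma 3.58.1 on log2(TPM + 1) (lmFit, eBayes with trend) in R 4.3.3, on 22 libraries with 6 group means and library set. The 2 Kl/Kl libraries whose Xist and Ddx3y went against the labelled sex were left out. A fold change on this scale understates low genes. Genes that reached 10 estimated reads in 4 or more samples were fitted with limma voom, and scaled reads were divided by median-of-ratios factors computed without mitochondrial genes. P-values are two-sided, with Benjamini-Hochberg adjustment over all genes tested; intervals are 95%. Single values used exact permutation. The code was tested on simulated data.

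Named were Bmp2 and Kl, BMP pathway members, and up to 10 genes each way of smallest p among those with a mean TPM of at least 5 and no overlap (leaving out predicted genes, pseudogenes, ribosomal protein genes and receptor segments). Of every other list, up to 4 members of smallest unadjusted p in the control comparison were named. Such a member is thus not typical of its list, whose median and counts describe the whole. Members and lists were chosen with earlier results of these data known. Other settings tried were pseudocount, filter, scaling, age, library set, replicate block, libraries left out and the fit on reads.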

Additional observations from a re-analysis of the deposited data

Results flagged for a closer look

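Of 94 groups of 4 libraries examined for a library far from the others, 3 held one; chance alone gives about 1 in 20. The airway epithelium list mean of ∆UCS replicate 1 was 5.06 on the log2(scaled reads + 1) scale, against 9.64 to 10.57 in the other ∆UCS libraries. The macrophage list mean of ∆UCS replicate 4 was 9.35, against 8.93 to 8.98. The TPM of Mt2 in Bmp2+/+ replicate 4 was 113, against 55.0 to 62.2 in the other Bmp2+/+ libraries.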

How the results depend on the processing

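For the genotype difference in controls, 0 genes were called by limma under each planned setting: pseudocount, filter, scaling, mitochondrial genes left out, no library set, age, all 24 libraries, the 8 libraries alone, set 1 alone, and each library left out (0 to 0). At an unadjusted p under 0.05 these gave 82 to 992 genes, and limma voom on reads 1376. The difference between kidney states likewise had 0 calls in each setting run. With 1 added exception, limma voom also called 0: without Bmp2+/+ replicate 1 it called Gm3555, a predicted gene outside the naming rule (log2 difference 2.10, adjusted p = 0.0171). That setting, voom with other terms, and Bmp2+/+ replicates 3 and 4 left out were chosen after seeing the data. With the replicate block 0 genes were called (199 at an unadjusted p under 0.05). Same-numbered libraries did not deviate together (correlations -0.29, -0.29, -0.13 and -0.24 on the deviations from group means), so the numbers do not pair the samples.

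The log2 ratio of mean Bmp2 TPM was 0.023 with mitochondrial genes left out and ran from -0.41 to 0.058 with each library left out. That range does not cover set 1 alone, where both Bmp2+/+ libraries were above the ∆UCS mean. On the deposited TPM scale Id1 was at -0.19 in set 1 alone and -0.066 with all 24 libraries. On that scale Id2 was at -0.21, at -0.12 and, with age as a covariate, at -0.054. The median of all genes on that scale was -0.17 in the main fit. The differences given above for Id1 and Id2 came from the fit on reads, so their sign changes mix the scale with the setting. Ahcyl1 ran from -0.053 (without Bmp2+/+ replicate 3) to 0.30. The cause was not tested. Of 1052 values of 65 named genes under other settings, 1046 kept their direction and side of the threshold and 6 changed sign. No gene was called in the main fits, so the side of the threshold could hardly change. Many of these genes were named for a small p or for separated groups in the same libraries, which favours a kept direction. The count is therefore no measure of stability. Of 831 list medians, 62 moved. Depth limits genes with few reads, such as Bmp2 and Kl.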

Other observations

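A few single Hox genes, which mark position along the body axis, had higher levels in ∆UCS control males. They were chosen after their values were seen, none was called by limma voom, and other Hox genes were not raised. On the TPM scale Hoxa4 and Hoxa2 had log2 differences of -0.24 and -0.25, near the -0.17 of all genes. Hoxc8 was at 0.49 on that scale, against 1.04 in the fit on reads, which gave the differences below. Hoxa7 stood at 768, 516, 341 and 355 scaled reads in ∆UCS and 212, 273, 273 and 238 in Bmp2+/+ (log2 difference 0.87, interval 0.12 to 1.63). Hoxb6 stood at 177, 108, 106 and 83 against 55, 70, 37 and 51 (1.15, interval 0.24 to 2.06), and Hoxb5 and Hoxb8 also separated the groups. Hoxb7 and Hoxc8 differed by 1.34 and 1.04 with overlap: ∆UCS replicate 4 was below Bmp2+/+ replicate 4 for Hoxb7 and below Bmp2+/+ replicate 3 for Hoxc8. ∆UCS replicate 1, the library that nearly lacked airway genes, was the highest for each of these genes. Hoxa5 also overlapped, at 1094, 711, 648 and 598 against 604, 691, 483 and 1011.

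The next 4 genes were likewise chosen after their values were seen, from genes that were higher in ∆UCS. Most genes at an unadjusted p under 0.05 were lower on the TPM scale and in the fit on reads, but not after median-of-ratios scaling of TPM. Pi15, a secreted peptidase inhibitor, had the smallest p of the fit on TPM, at 1.93, 2.08, 3.68 and 2.43 TPM against 1.60, 0.963, 0.353 and 0.750 (limma, log2 difference 1.02, adjusted p = 0.959). In scaled reads it stood at 2910, 2828, 3903 and 2228 against 1233, 1098, 368 and 1166 (2.11, interval 1.29 to 2.94), and in Kl/Kl males it differed by -0.17 (interval -0.97 to 0.62). Gucy1b1, a subunit of the nitric oxide receptor, stood at 2414, 2314, 2750 and 1870 against 1233, 1500, 463 and 908 (1.68, interval 0.72 to 2.65). Nox4, a NADPH oxidase of the vessel wall, stood at 2628, 1658, 1645 and 1087 against 775, 1093, 305 and 332 (2.07, interval 0.95 to 3.18), and Cd200, an immune checkpoint ligand, at 3716, 3019, 2833 and 2113 against 1553, 2072, 1383 and 1788 (0.96, interval 0.49 to 1.43). Bmp2+/+ replicate 3 was the lowest library for each of these genes.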
